A study of Bos taurus with 179 samples.

Results

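The DNA damage checkpoint and BRCA genes described here are ATM, ATR, ATRIP, CHEK1, CHEK2, BRCA1, BARD1, BRCA2, BRIP1 and BLM. They are those of a list of 10 symbols that the supplementary gene tables of the study pair with a gene ID, and all 10 were paired, out of 21218 gene IDs in the count table, of which 3608 carry a symbol. The 10 pairings come from the tables' list of genes expressed in every size group, so the detection of these genes in all groups follows from how they were found and is given as a description. Oocytes of Bos taurus from abattoir ovaries were denuded, measured and frozen singly, and the polyadenylated mRNA of each was amplified and sequenced. The study's methods describe aspiration of visible follicles, which took out fully grown oocytes, and then the release of growing oocytes by slicing the cortex in a medium with heparin and the phosphodiesterase inhibitor cilostamide. The labels do not say how each oocyte was collected, so collection and size cannot be told apart, and they name no treatment. They sort the oocytes by diameter into group A (below 60 μm), B (60 to 69 μm), C (70 to 79 μm), D (80 to 89 μm), E (90 to 99 μm), F (100 to 109 μm), G (110 to 119 μm) and H (above 120 μm). The oocytes analysed, from 48 to 135 μm, numbered 21, 25, 23, 24, 21, 18, 19 and 14 from A to H.

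Libraries came in 2 replicates that hold different oocytes, 97 in replicate 1, read at 150 bp, and 68 in replicate 2, read at 75 bp. Library batch and read length cannot be told apart, and neither can a difference between the oocytes of the batches. The total count per oocyte ranged from 277126 to 8038061, with a median of 1763520. For the tests, counts of oocytes that share a size group and a replicate were added up into 16 sums, and a level is given as CPM, the counts of a gene per 1000000 counts, scaled by the TMM method. A CPM is a share of the counted mRNA of an oocyte, so more mRNA of a gene per oocyte and less mRNA of other genes cannot be told apart. The study cautions that its extraction selects mRNA with long poly(A) tails, which may leave the picture incomplete. The part of tail length in the results was not tested. The labels name no animal, so that p-values measure the spread between these sums. The sum of group A in replicate 1 holds 3 oocytes, and in the sum of group F in replicate 1 a single oocyte gave 52.9% of the counts. All 6 oocyte markers that could be paired were detected, 5 of them, such as BMP15 and BTG4, in every oocyte analysed, and their summed level per oocyte ranged from 3737 to 16307 CPM. Only a part of each list could be paired, 6 of 14 for granulosa and cumulus and 6 of 11 for theca and stroma. For blood and endothelium it was 7 of 13, and AMH, FOXL2 and CYP19A1 are among the markers not covered. The 6 granulosa and cumulus markers summed to at most 21.4 CPM in any oocyte, with medians of 6.95 CPM in group A and 0.786 CPM in group H, and each of AMHR2, CYP11A1 and CCND2 was at 0 in at least 155 oocytes. HSD17B1 had counts in 123 oocytes, with a median of 1.504 CPM, FSHR in 45 and GATA4 in 44. The 7 blood and endothelial markers summed to at most 8.47 CPM, with counts of CD68 in 64 oocytes, of CLDN5 in 41, of CD74 in 30 and of each of the other four in at most 4. The 6 theca and stroma markers reached 76.6 CPM, from COL1A2, ACTA2 and CNN1, with medians of 10.4 CPM in A, 27.9 CPM in C and 22.2 CPM in H, while COL1A1 and COL3A1 were at 0 in 163 and 161 oocytes. The median of the summed oocyte markers was 4709 CPM in A and 8872 CPM in H. The part of these markers in the results was not tested.

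ATM and ATR are large kinases that sense damaged DNA, ATM at double-strand breaks and ATR, with its partner ATRIP, at single-stranded DNA, and they activate the effector kinases CHEK2 and CHEK1. BRCA1, with BARD1 as its ubiquitin ligase partner, acts early in repair by homologous recombination, BRCA2 acts in the same repair pathway, and the helicases BRIP1 and BLM work on the DNA structures that arise. Oocytes rest for long periods in meiotic prophase with recombined chromosomes, and in mice CHEK2 signalling can remove oocytes with unrepaired breaks.

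Fitted over all 16 sums with the replicate as a block, BRCA2 was the gene of the set that passed the test of level against oocyte size, and no test compared its slope with those of the other genes. In replicate 1 its sums stood at 227.9, 150.997, 142.3, 130.0, 133.8, 159.6, 404.4 and 232.1 CPM from group A to H. In replicate 2 they stood at 479, 624, 411, 800, 857, 671, 1118 and 1156 CPM. In both replicates the sums of G and H lay above those of A and B, and the lowest sum was that of D in replicate 1 and of C in replicate 2. Over the mean diameters of the sums, the log2 level of BRCA2 rose by 0.13 per 10 μm (SE 0.041, adjusted p = 0.0186). From groups A and B to groups G and H, BRCA2 rose 1.83-fold (log2 0.87, SE 0.25, adjusted p = 0.0127), by 1.65-fold within replicate 1 and 2.08-fold within replicate 2. In replicate 2 alone, where 18.2% of all genes were called, the slope was 0.17 (SE 0.037, adjusted p = 0.00443), and in replicate 1 alone, where 18.1% were called, it was 0.12 (SE 0.067, adjusted p = 0.238), which did not pass the test. The difference between these slopes in a joint fit was 0.079 (SE 0.082, adjusted p = 0.756), in a test by edgeR that called 0 of 14087 genes, with 1527 at an unadjusted p under 0.05. Without the replicate as a block, the slope of BRCA2 was 0.16 and no longer passed (adjusted p = 0.293).

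**Figure D1:**
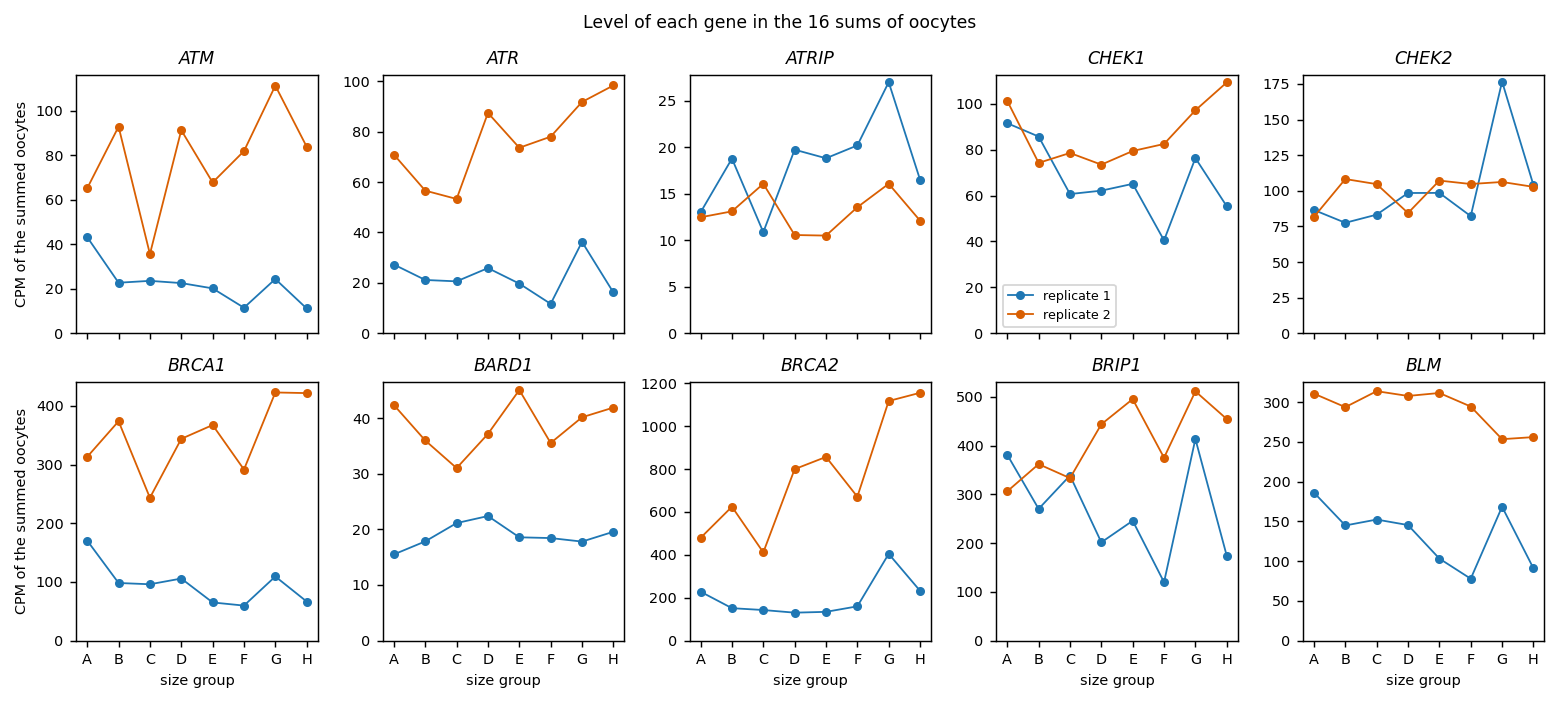
Level of the 10 genes (vertical axes, CPM of the summed oocytes, each starting at 0) in size groups A to H (horizontal axes), with 1 line per replicate and 1 point per sum of 3 to 18 oocytes. BRCA2 reaches 404.4 CPM in group G of replicate 1 and 1156 CPM in group H of replicate 2, and for 8 of the 10 genes the replicate 2 line lies above that of replicate 1 in at least 6 of the 8 groups.

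The 9 other genes did not pass the test of the slope, so 1 of 10 genes was called, where 33% of the 14087 genes tested were called, 14.8% higher and 18.1% lower in larger oocytes. The median slope was 0.01 over the 10 genes and −0.02 over all genes, on the log2 scale per 10 μm. In the test for any difference among the 8 groups, none of the 10 genes was called by edgeR, with 1 at an unadjusted p under 0.05 against 30.97% of all genes, and BRCA2 was the nearest (adjusted p = 0.0544), where 14.9% of all genes were called. DESeq2 called BRCA2 alone of the set in the same test, and 29.1% of all genes. Between A and B against G and H, 1 of 10 genes was called, against 29.9% of all genes, 13.6% higher and 16.2% lower in the larger oocytes. For the other nine the log2 difference in that comparison lay between −0.32 (ATM) and 0.46 (CHEK2), with standard errors of 0.21 to 0.32.

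Among the sensor kinases, ATM had slopes of opposite sign in the replicates. Its sums in replicate 1 were 43.2, 22.7, 23.6, 22.6, 20.2, 11.5, 24.4 and 11.1 CPM from A to H, highest in the smallest oocytes. In replicate 2 they were 65.2, 92.9, 35.6, 91.3, 67.8, 81.9, 111 and 83.9 CPM, with the lowest level in C and the highest in G. The slope was −0.16 (SE 0.061, adjusted p = 0.0915) in replicate 1 and 0.07 (SE 0.051, adjusted p = 0.37) in replicate 2. The difference between the slopes, 0.25 in a joint fit, had an unadjusted p of 0.00651 and did not pass the adjusted test (adjusted p = 0.3), in which no gene was called.

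ATR stood at 27.3, 21.1, 20.6, 25.9, 19.7, 11.7, 36.3 and 16.2 CPM in replicate 1 and at 70.9, 56.6, 53.3, 87.4, 73.6, 78, 91.8 and 98.3 CPM in replicate 2. In replicate 2 the sums of G and H exceeded those of A and B, and in replicate 1 the groups overlapped. Its slope was 0.03 (SE 0.040, adjusted p = 0.554). ATRIP, the partner through which ATR is recruited, was counted at 10.9 to 27 CPM in replicate 1 and at 10.5 to 16.1 CPM in replicate 2, lowest in C and highest in G in the former, lowest in E and highest in C in the latter. Its slope was 0.05 (SE 0.038, adjusted p = 0.382). ATRIP was the gene most often without a count, in 4 oocytes, 3 of them of group A in replicate 2, where the 3 counts that a count of 0 allows correspond to 2.05 to 2.45 CPM. BARD1 was without a count in 1 oocyte of group B, and the other 8 genes had a count in every oocyte analysed. With each oocyte thinned to 250000 counts, ATRIP was counted in 90.3% of the oocytes and BARD1 in 98.2%. These limits cover counting error alone.

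Of the effector kinases, CHEK2 stood in replicate 2 at 81.7, 108, 105, 84.4, 107, 105, 106 and 103 CPM from A to H. In replicate 1 it stood at 86.5, 77.5, 83.2, 98.4, 98.5, 82.2, 177 and 104 CPM, where the sums of G and H exceeded those of all smaller groups. Its slope of 0.06 (SE 0.031, adjusted p = 0.127) did not pass the test. With every oocyte thinned to 250000 counts the slope was 0.10 and passed (adjusted p = 0.00674), and it also passed without the sum of group B in replicate 2 (0.09, adjusted p = 0.0481), while without that of group G in replicate 1 it was 0.04 (adjusted p = 0.214). The gene ID of CHEK2 stands on 2 lines of the table, which hold 23.1% and 76.9% of its counts and were summed. Taken as a gene of its own, the smaller line had a slope of 0.09 (SE 0.031, adjusted p = 0.0382) and the larger line a slope of 0.07 (SE 0.037, adjusted p = 0.182). Over single oocytes of replicate 1, the 12 oocytes of group G ranged from 90.8 to 285.9 CPM with a median of 179 CPM, and the 11 of group F from 47.6 to 109 CPM with a median of 87.8 CPM, so that the ranges overlapped. In replicate 2 the 7 oocytes of G ranged from 76.6 to 140 CPM and the 7 of F from 89.5 to 161 CPM.

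CHEK1, the effector of ATR, was counted at 40.5 to 91.5 CPM in replicate 1, highest in A and lowest in F, and at 73.5 to 109 CPM in replicate 2, lowest in D and highest in H. In replicate 1 the sums of G and H lay below those of A and B, and in replicate 2 they did not. Its slope was −0.02 (SE 0.031, adjusted p = 0.615), and with thinned oocytes it was 0.02.

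BRCA1 stood at 170, 98.1, 95.9, 106, 64.9, 59.5, 109 and 66.5 CPM in replicate 1 and at 313, 374, 243, 344, 367, 291, 423 and 422 CPM in replicate 2. The highest sum was that of group A in replicate 1 and that of group G in replicate 2. Its slope was −0.04 (SE 0.038, adjusted p = 0.459), with −0.11 (SE 0.054, adjusted p = 0.188) in replicate 1 and 0.05 (SE 0.033, adjusted p = 0.273) in replicate 2. BARD1, which forms a heterodimer with BRCA1, was the most even of the 10 over the sums of replicate 1, from 15.5 CPM in A to 22.4 CPM in D, and ranged from 31.05 to 45.1 CPM in replicate 2. Its slope was 0.02 (SE 0.028, adjusted p = 0.696).

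The helicase gene BRIP1 stood at 381.1, 270.1, 338.5, 201.5, 245.8, 119.7, 413.5 and 174.0 CPM in replicate 1 and at 306, 362, 333, 444, 495, 375, 511 and 455 CPM in replicate 2. In replicate 1 its highest sum, in G, was 3.45 times its lowest, in the neighbouring group F. In the sum of C in replicate 1, a single oocyte stood at 1151 CPM and the other 15 at 97.6 to 326 CPM, with a median of 179 CPM over the 16. The slope was −0.00 (SE 0.044, adjusted p = 0.965). BLM stood at 186.2, 144.8, 152.3, 145.3, 103.1, 77.8, 168.4 and 90.95 CPM in replicate 1 and at 310.7, 293.8, 313.8, 307.8, 311.6, 294.5, 253.4 and 256.0 CPM in replicate 2, where G and H were the lowest sums. Its slope of −0.07 (SE 0.031, adjusted p = 0.0915) was the lowest of the set and did not pass. Without the sum of group G in replicate 1 it was −0.09 and passed (adjusted p = 0.0151), and without that of group A in replicate 1 it was −0.05 (adjusted p = 0.37).

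**Figure D2:**
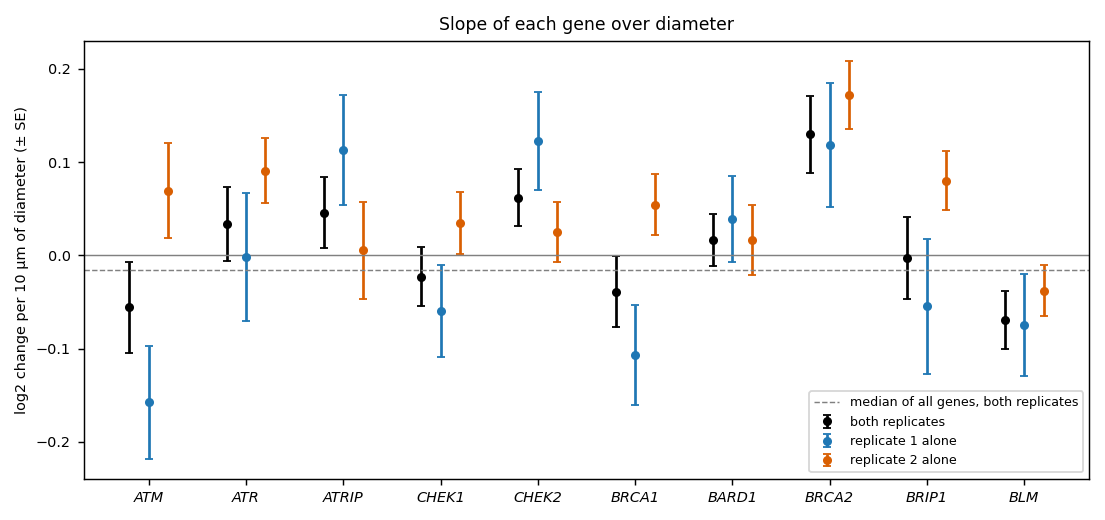
Slope of each gene over diameter (vertical axis, log2 change per 10 μm, bars ± SE) fitted over both replicates with a replicate block (black, 16 sums) and in each replicate alone (8 sums each), with the median slope of all 14087 genes as a dashed line. BRCA2 is above 0 in all 3 fits, at 0.13, 0.12 and 0.17, BLM is below 0 in all 3, and ATM, ATR, CHEK1, BRCA1 and BRIP1 differ in sign between the replicates.

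The successive comparisons addressed where along growth a level changes. None of the 10 genes was called by edgeR in any of the 7, where the share of all genes called was 0.0142% from A to B, 0.135% from A and B to C, 0% from C to D and E, 0% from D to E, 0.497% from D and E to F, 3.88% from F to G and 0.0071% from G to H. These shares depend on single sums. Leaving out each sum in turn gave 0% (without F or G replicate 1) to 9.94% (without F replicate 2) from F to G, 0% to 1.99% from D and E to F, and up to 1.99% from G to H, without G replicate 2, and without the replicate block all 3 shares were 0%. At an unadjusted p under 0.05 there were 3 genes of the set from F to G, namely BRCA2, BRIP1 and ATR, against 26.0% of all genes, and 0 in the other 6 comparisons, where the share of all genes was 3.21% to 16.1%. From C to D and E and from D to E, where edgeR called no gene at all, 780 and 469 genes had an unadjusted p under 0.05, and DESeq2 called 17 and 0. DESeq2 called BRCA2 and BRIP1 from F to G, with 14% of all genes, and none of the set in the other 6.

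From F to G all 10 genes had a difference above 0, where 47.7% of all genes did, with a median of 0.65 on the log2 scale against −0.06 over all genes. The largest were BRCA2 (1.06, SE 0.35, adjusted p = 0.0781), BRIP1 (1.05, SE 0.39, adjusted p = 0.105) and ATR (0.87, SE 0.36, adjusted p = 0.132), and the smallest was BARD1 (0.06, SE 0.31, adjusted p = 0.917). Within replicate 1 the level in G exceeded that in F for 9 genes, by 3.45-fold for BRIP1, 3.11-fold for ATR and 2.53-fold for BRCA2. Within replicate 2 it also did for 9, by 1.67-fold for BRCA2, 1.45-fold for BRCA1, 1.36-fold for BRIP1 and 1.18-fold for ATR. The exception was BARD1 in replicate 1 and BLM in replicate 2. Since the sum of F in replicate 1 rests mainly on 1 oocyte, the step was also fitted without that oocyte, which left a median of 0.62, and without the whole sum, which left a median of 0.45. Without the sum of F in replicate 2 the median was 0.98. All 10 differences were above 0 in each of these fits. The fits share the sums of group G and several of the genes vary together over oocytes. Neither the fits nor the genes are therefore separate observations, and these counts are a description.

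The comparisons before and after this step share group F or group G with it, so a low sum of F or a high sum of G enters both with opposite sign, and their values are given as a description. From D and E to F, 9 of the 10 genes had a difference below 0, against 52% of all genes, with a median of −0.28. Within replicate 1 the level in F was below that of D and E for 8 genes, and within replicate 2 for 6. Without the sum of F in replicate 1, 3 genes were below 0 and the median was 0.06, and without that of F in replicate 2 the median was −0.63. It was −0.17 without the deepest oocyte of F in replicate 1, and −0.16 without the sum of E in replicate 2, with 7 genes below 0. From G to H, 9 of 10 were below 0, against 49.1% of all genes, with a median of −0.46. Within replicate 1 the level in H was below that in G for 9 genes, and within replicate 2 for 5. Without the sum of G in replicate 1 the median was −0.18 and 8 genes were below 0, without that of H in replicate 1 it was −0.26 and 7 were below 0, and without that of G in replicate 2 it was −0.77.

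The library replicates differed in most of these genes. Tested with the size group as the other term, 8 of the 10 genes were higher in replicate 2, where 57.7% of all genes were called, 25.9% higher and 31.7% lower in replicate 2. This test was chosen after the data had been seen. BRCA2 differed 3.94-fold (log2 1.98, SE 0.18, adjusted p = 4.37e-08), BRCA1 3.76-fold (log2 1.91), ATM 3.65-fold (log2 1.87), ATR 3.49-fold (log2 1.80), BLM 2.27-fold (log2 1.18), BARD1 2.04-fold (log2 1.03), BRIP1 1.62-fold (log2 0.70) and CHEK1 1.32-fold (log2 0.40, SE 0.15, adjusted p = 0.0312). CHEK2 did not pass (log2 0.03, SE 0.15, adjusted p = 0.875), and ATRIP had a value below 0 (log2 −0.44, SE 0.19, adjusted p = 0.0548). The median of all genes was −0.16, and −0.11 with RLE scaling, under which the same number of genes of the set, 8, was called higher. Levels of ATM, ATR, BRCA1, BARD1, BRCA2 and BLM were higher in replicate 2 in all 8 size groups, those of CHEK1 in 7 and those of BRIP1 in 6, while those of ATRIP were lower in 7. The summed theca and stroma markers were higher in replicate 1 in all 8 size groups, at 12.3 to 41.8 CPM against 10.3 to 19.3 CPM in replicate 2, and their part in the difference was not tested. Replicate 2 made up 18 of the 21 oocytes of A and 4 of the 14 oocytes of H, so levels are given by replicate.

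**Figure D3:**
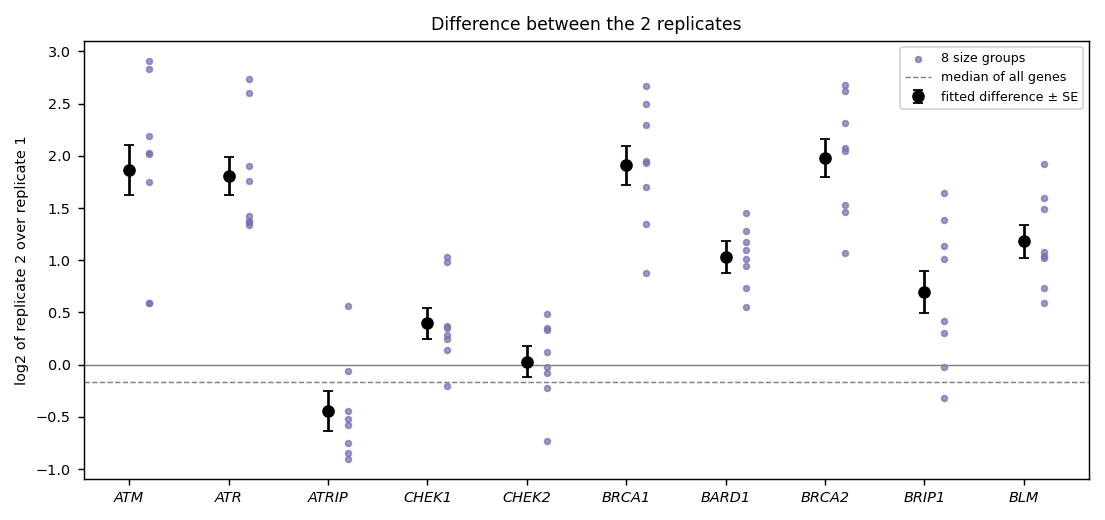
Difference between the replicates for each gene (vertical axis, log2 of the replicate 2 level over the replicate 1 level), fitted over the 8 size groups (black, ± SE) and in each size group (small points), with the median of all 14087 genes as a dashed line. ATM, ATR, BRCA1 and BRCA2 lie between 1.80 and 1.98, CHEK2 lies at 0.03 and ATRIP at −0.44.

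Single oocytes of 1 group and replicate differed widely. The 12 oocytes of group G in replicate 1 ranged from 116 to 1020 CPM of BRCA2, with a median of 354 CPM, and the 11 of group F ranged from 60.3 to 212.6 CPM, with a median of 139 CPM. In replicate 2, BRCA2 ranged from 476 to 1940 CPM in the 7 oocytes of G and from 338 to 1278 CPM in the 7 of F. The ranges of neighbouring groups overlapped in both replicates. Over the 15 sets of at least 4 oocytes of 1 group and replicate, the coefficient of variation of BRCA2 had a median of 0.452, where counting error alone gave 0.0336. For CHEK2 the median was 0.251 against 0.0819, the lowest of the 10, and for ATM it was 0.609 against 0.133, the highest. The part of amplification in this spread was not tested.

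**Figure D4:**
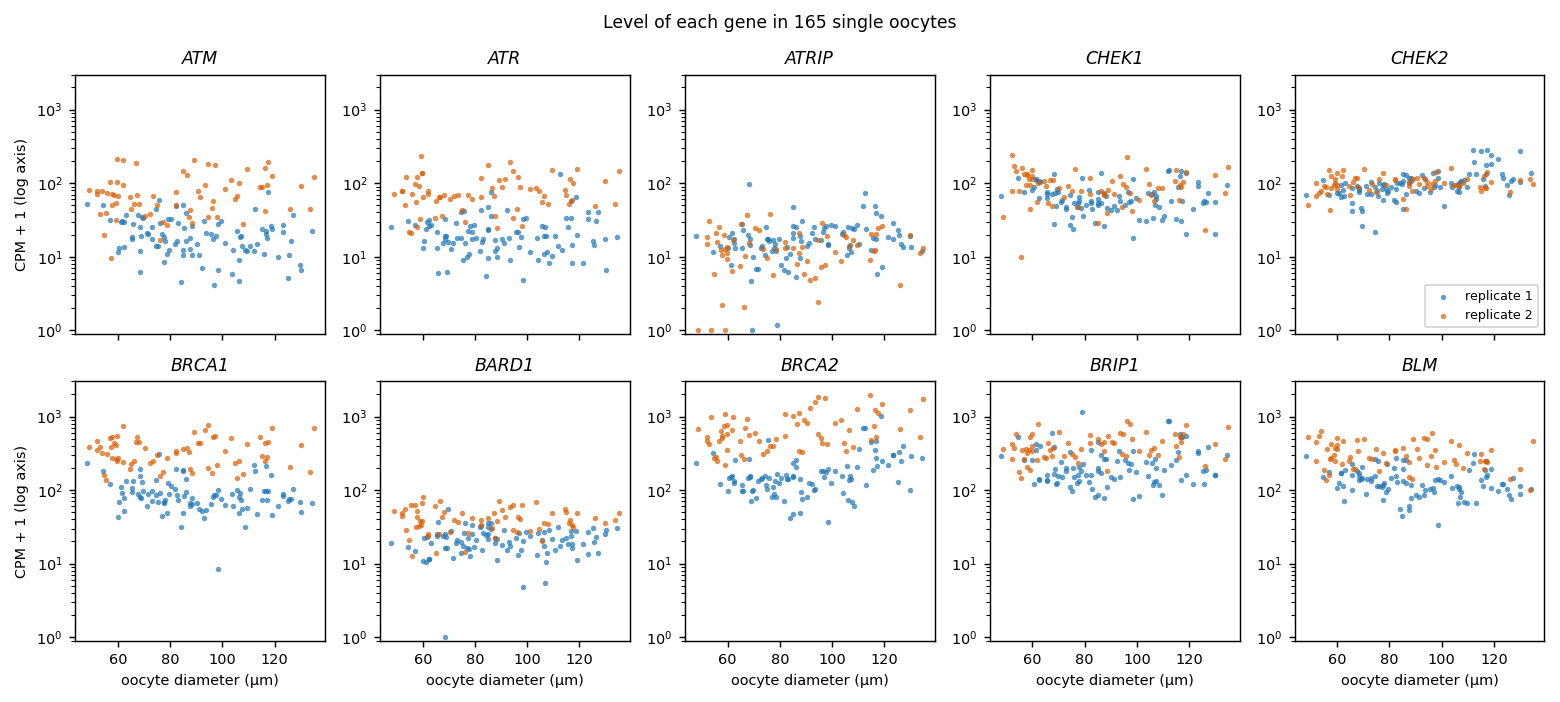
Level of the 10 genes (vertical axes, CPM + 1 on a log axis) against oocyte diameter (horizontal axes, μm), with 1 point for each oocyte analysed, coloured by replicate. The ranges of the replicates overlap for BRCA1, with medians of 80.3 CPM in replicate 1 and 331.7 CPM in replicate 2, and for BRCA2, with medians of 144.3 and 578.7 CPM, and the medians of CHEK2 are 91.8 and 96.5 CPM. The CHEK2 oocytes of group G in replicate 1 reach 285.9 CPM, and the 4 ATRIP points and 1 BARD1 point at 1 are oocytes without a count.

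Described over all oocytes analysed as Pearson's r of log2(CPM + 1) with diameter, after removal of the replicate means, CHEK2 (r = 0.42, rho = 0.44) and BRCA2 (r = 0.39, rho = 0.36) had the highest values and BLM the lowest (r = −0.23, rho = −0.25). These oocytes share library batches and diameters follow group, so no p is given. For CHEK2, r was 0.58 over the 97 oocytes of replicate 1 and 0.16 over the 68 of replicate 2, for BRCA2 it was 0.37 and 0.41, and for BLM it was −0.22 and −0.25. For ATM the values had opposite signs, −0.26 and 0.21. Leaving out the 2 oocytes farthest from the median diameter gave 0.43 for CHEK2, 0.37 for BRCA2 and −0.25 for BLM. Over the 178 deposited oocytes with at least 1000 counts, r was 0.34 for CHEK2, 0.44 for BRCA2, −0.02 for BLM and 0.18 for ATM. There rho was 0.44, 0.40, −0.15 and 0.05. With the log10 total count in place of diameter, r was 0.24 for both CHEK2 and BRCA2 and 0.21 for BLM, and the part of depth in these values was not tested.

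Within a group and replicate, several of the genes varied together from oocyte to oocyte. Over the 45 pairs, with the mean of each group and replicate removed, r had a median of 0.22 and ranged from −0.13 to 0.75, where r between these genes and the 14077 other genes tested had a median of −0.01, with 80% of values between −0.29 and 0.31. The highest pairs were BRCA1 with BLM (0.75), BRCA1 with BRCA2 (0.74), ATR with BRCA2 (0.65) and ATR with BRCA1 (0.62). Each was also at least 0.56 in either replicate alone. Among partners in a complex, BRCA1 and BRIP1 had r = 0.60, with 0.54 in replicate 1 and 0.76 in replicate 2, the highest of the 45 pairs there. ATR and ATRIP had r = 0.01, with 0.18 in replicate 1 and −0.21 in replicate 2, and BRCA1 and BARD1 had r = 0.23. A kinase and its effector gave 0.39 for ATR with CHEK1 and 0.05 for ATM with CHEK2. With oocytes thinned to 250000 counts, the median over the pairs was 0.11 and BRCA1 with BLM had r = 0.67. BRCA1 with BRCA2 then had 0.64, ATR with BRCA1 0.49 and ATR with BRCA2 0.44. BRCA1 with BRIP1 had 0.52, ATR with CHEK1 0.24 and BRCA1 with BARD1 0.11. The points of each pair share library, depth and amplification, and low counts lower r, so that the values for ATRIP and BARD1 cannot be set beside those for BRCA2 on equal terms.

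**Figure D5:**
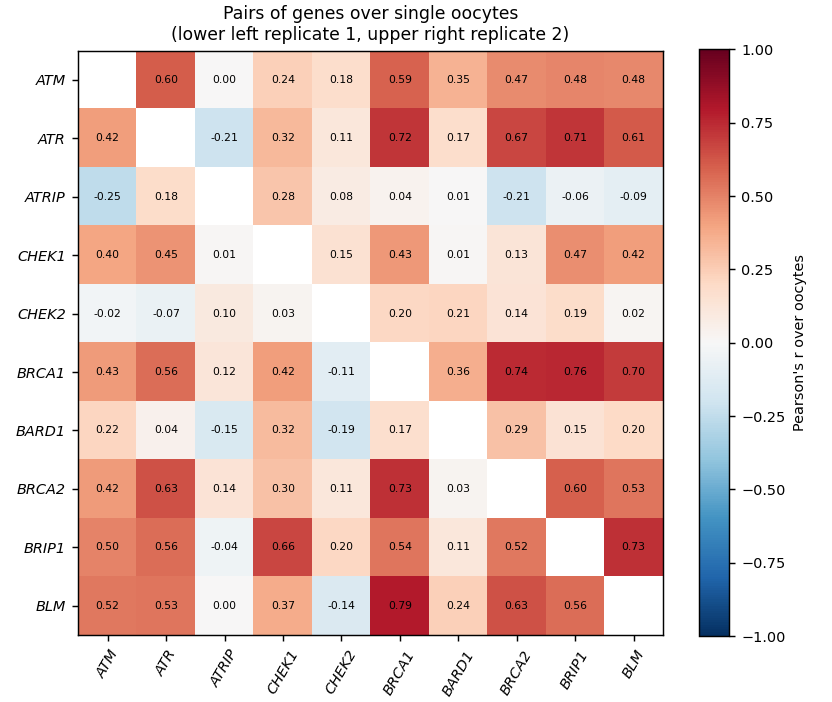
Pearson's r over single oocytes for each of the 45 pairs of genes, after removal of the mean of each group and replicate, on a colour scale from −1 to 1, with the 97 oocytes of replicate 1 at the lower left and the 68 of replicate 2 at the upper right. BRCA1, BRCA2, ATR, BRIP1 and BLM form a block with r of at least 0.52 in both replicates, and the highest value in the rows of ATRIP, CHEK2 and BARD1 is 0.36, for BRCA1 with BARD1 in replicate 2.

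The gene with a symbol whose pattern over the 16 sums was most like that of each gene was found among 2935 candidates by Pearson's r of log2(CPM + 1) after removal of the replicate means. BRCA2 was nearest to CENPF, a protein of the outer kinetochore (r = 0.98, with 0.99 in replicate 1 and 0.96 in replicate 2), which was 1 of 9 candidates with r above 0.9, where each other gene of the set had 0 to 3. BRCA1 was nearest to CEP350 (r = 0.93), BLM to ARIH1 (0.92), BRIP1 to CUL3 (0.92), CHEK2 to BCL10 (0.91), ATR to CDC27 (0.90), ATM to ANKRD17 (0.90), CHEK1 to CCDC171 (0.88), ATRIP to B4GALT4 (0.84) and BARD1 to ZKSCAN7 (0.80). In replicate 2 alone these values were lower for several, with 0.43 for BLM, 0.67 for BRIP1, 0.71 for ATR and 0.74 for CHEK2, and those of the other five lay between 0.84 and 0.91. Only the first part of the alphabet is well covered by the symbols, so these are the nearest of the genes named here.

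Other genes of these pathways were taken from 6 lists of which only a part carries a symbol, and no list can speak for its pathway as a whole. The counts over diameter stand against the 14.8% of all genes called higher and the 18.1% called lower, and the list medians against −0.02 over all genes. Of 9 tested signalling partners and targets of ATM and ATR, 4 rose and 1 fell over diameter, with a median slope of 0.08. The phosphatase genes CDC25B, a target of checkpoint kinases, with a slope of 0.25 (SE 0.038, adjusted p = 5.18e-05), and CDC25A, with 0.12 (SE 0.029, adjusted p = 0.00325), rose with ABL1 and CLSPN, which encodes the adaptor between ATR and CHEK1. CEP63, a centrosomal substrate of ATM and ATR, fell (−0.18, SE 0.034, adjusted p = 0.00047). CDC25B stood at 23.7 and 17.7 CPM in group A of replicates 1 and 2 and at 116 and 44.0 CPM in group H.

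Of 7 tested partners of BRCA1 and BRCA2, 1 rose and 1 fell, with a median slope of 0.01. AUNIP, which takes part in the choice of repair by end resection, rose by 0.22 (SE 0.039, adjusted p = 0.00021), from 50.9 and 27.5 CPM in group A to 182 and 56.6 CPM in group H, and BRCC3, the deubiquitinase of a BRCA1 complex, fell (−0.10, SE 0.034, adjusted p = 0.0271). Both tested Fanconi anaemia partners, CENPS (−0.17, SE 0.055, adjusted p = 0.0211) and CENPX (−0.15, SE 0.042, adjusted p = 0.00706), which form a DNA-binding complex with each other, fell.

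Among 7 genes of base excision and direct reversal repair, 2 rose and 1 fell, with a median of 0.06: APTX (0.19, SE 0.033, adjusted p = 0.000167), which removes AMP from stalled ligation ends, ALKBH2 (0.17, SE 0.043, adjusted p = 0.00383), which reverses base alkylation, and the endonuclease APEX1, which fell (−0.11, SE 0.023, adjusted p = 0.00144). Of 9 p53 targets and genes of apoptosis after damage, none rose and 2 fell, CASP9 (−0.26, SE 0.073, adjusted p = 0.00852) and CCNG1 (−0.13, SE 0.039, adjusted p = 0.013), with a median of −0.05. CASP9 was low, at 6.25 CPM in A, 27.2 CPM in C and 7.26 CPM in H of replicate 1. In replicate 2 it stood at 9.32, 5.11 and 0.466 CPM in these groups. Of 9 DNA replication genes, 4 rose and none fell, with a median of 0.13. CCNE2, a cyclin of S phase entry, had the steepest slope (0.35, SE 0.048, adjusted p = 1.31e-05), with CHAF1A, a histone chaperone subunit, at 0.14 (SE 0.034, adjusted p = 0.00358), beside CDC45 and ATAD5. From F to G, 4 genes of these lists were called, named here after their values were seen, where 3.88% of all genes were. CENPS (log2 1.31, SE 0.35, adjusted p = 0.0466), which fell over diameter, and ALKBH1 (log2 1.84, SE 0.41, adjusted p = 0.0333) were higher in G, and CDT1 (log2 −1.85, SE 0.48, adjusted p = 0.0445), a replication licensing factor, and APEX2 (log2 −2.10, SE 0.51, adjusted p = 0.0396) were lower. No gene was called from F to G without the sum of F or of G in replicate 1 or without the replicate block, so these 4 calls were lost there. The medians of the 6 lists in that comparison ranged from −0.64 (DNA replication) to 0.49 (Fanconi anaemia partners), against −0.06 over all genes. The lists are short and unequal in size, and no test compared them with each other or with other genes.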

How the data were processed

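The deposited values are raw counts per gene and oocyte, which the authors obtained by trimming with Trim Galore (version 0.6.6), alignment with HISAT2 to ARS-UCD1.2 and quantification with SeqMonk, with no normalization. Treatment of multiply aligned reads, strand and overlapping genes is not given in the sources used here. The genes and lists were chosen with earlier results of these data known. Of 179 deposited oocytes, the 97 and 68 of the study's sample table (replicates 1 and 2) were used, and lines with the same gene ID were summed. Counts were summed by size group and replicate. filterByExpr of edgeR (version 4.0.16; minimum count 10, minimum total 15) kept 14087 genes, all 10 members included. TMM scaling and edgeR's quasi-likelihood test were used with replicate as a block, Benjamini-Hochberg adjustment over all 14087 genes and calls at 0.05. The standard error is the log2 change divided by the root of F. Size groups were contrasts of 8 means, and slopes used the mean diameter of each sum. The study treats the replicates as batches. Deviations of sums of the same replicate correlated in all 28 pairs of groups (0.398 to 0.694), so the replicate number pairs the sums. CPM per oocyte used TMM effective library sizes. The fit was tested on simulated data. Alternatives were no block, RLE scaling, DESeq2 (version 1.42.0), no filter, single oocytes as units, 250000 counts per oocyte, all deposited oocytes and each sum left out. Named genes were the 10 members, in each list up to 2 called genes with the smallest adjusted p in each direction of the slope, and the nearest gene of each member. Scripts ran in R 4.3.3 and in Python 3.11.15 (pandas 2.3.3, scipy 1.17.1, figures with matplotlib 3.10.9).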

Additional observations from a re-analysis of the deposited data

Results flagged for a closer look

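In the 14 deposited oocytes outside the analysed set, the 10 genes had 21520 counts in all, with at least 1 count in 12 oocytes, and were listed because no comparison above uses these oocytes. BRCA2 held 6377 of these counts and ATRIP 109. In the 9 of these oocytes with at least 100000 counts, the genes together took 105 to 2814 per 1000000 counts, with a median of 1163, and in the analysed oocytes 308 to 3559, with a median of 1142.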

How the results depend on the processing

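Of the 24 alternatives to the slope, BRCA2 was called in all but 1. These alternatives reuse the same oocytes, so they are not separate tests. Where BRCA2 was called, so were 26.5% (without A replicate 1) to 57.8% (single oocytes as units) of all genes. The fit in replicate 1 alone, in which BRCA2 was not called, is not among them. Without the replicate block, 0 of the 10 genes were called in the slope, against 15.6% of all genes. From A and B to G and H 0 were called, against 4.93% of all genes. The slopes of ATM (0.0185), BRCA1 (0.0194) and BRIP1 (0.0159) turned positive without the block. The slope of BRIP1, −0.0032 as reported, was also positive with RLE scaling (0.0057), DESeq2 (0.0057), no filter (0.0062), single oocytes as units (0.0487), 250000 counts per oocyte (0.0176), all 179 deposited oocytes (0.0212) and without the deepest oocyte of F in replicate 1 (0.0133), and that of CHEK1 with 250000 counts (0.0245). None of these was called. Single oocytes as units, which treats cells as replicates, called 3 genes in the slope, 5 over all 8 groups, 1 from A and B to C (CHEK1), 6 from F to G and 4 from A and B to G and H. Of all genes, this setting called 57.8% in the slope and 7.54% from A and B to C. It called 36.9% from F to G and 56.2% from A and B to G and H. With 250000 counts per oocyte, 2 were called in the slope, 1 over all 8 groups, 1 from F to G and 2 from A and B to G and H. Thinning in this way called 38.1% of all genes in the slope, 7.68% from F to G and 37.6% from A and B to G and H. Over all 8 groups, RLE scaling, DESeq2, no filter and leaving out the deepest oocyte of F in replicate 1 (chosen after seeing the data) each called 1 gene, BRCA2, and from F to G DESeq2 and no filter called 2. From F to G DESeq2 called 14.0% of all genes and the fit with no filter 7.33%. Leaving out each sum in turn gave 1 to 2 genes in the slope, 0 to 1 over all 8 groups, 0 to 2 from F to G and 1 to 2 from A and B to G and H. Of all genes, 26.5% to 32.8% were called in the slope under these leave-outs. The share was 0% to 9.94% from F to G and 19.1% to 28.5% from A and B to G and H. The slopes were −0.0692 to 0.008 for ATM, −0.0349 to 0.007 for CHEK1, −0.051 to 0.0171 for BRCA1, −0.0306 to 0.0396 for BRIP1, 0.1039 to 0.1914 for BRCA2, 0.0093 to 0.0679 for ATR, 0.0352 to 0.0755 for ATRIP, 0.0135 to 0.0396 for BARD1, −0.0856 to −0.0451 for BLM and 0.0405 to 0.0901 for CHEK2. Without A replicate 1, a sum of 3 oocytes, ATM, CHEK1 and BRCA1 took the positive ends. From F to G, 2 genes were called without A replicate 1 or A replicate 2 (BRCA2, BRIP1), without F replicate 2 (ATR, BRIP1) and without G replicate 2 (BRCA2, CHEK2). In that order, these fits called 8.07%, 8.10%, 9.94% and 9.74% of all genes. The cause of these changes was not tested. The 2 sums per group, with 3 to 18 oocytes each, limit what any step between neighbouring groups can show.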
